A study of Mus musculus with 6 samples.

Results

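The 10 genes described here mark endothelial cells, and they were found by their symbols (Pecam1, Kdr, Emcn, Cdh5, Plvap, Eng, Tie1, Egfl7, Flt1 and Ehd3) among 55367 gene symbols listed in every library. The libraries were made from kidney cells that bind the lectin DBA, a preparation labelled as kidney tubular epithelium, and the genes were used to ask how much endothelial RNA it held. There were 2 libraries for each of 3 groups of male mice, all labelled Day115. WT mice received saline. ADPKD mice were Pkd1-/- and received saline. ADPKD+MMPP mice were Pkd1-/- and received MMPP, an injected melanin-like nanoparticle that carries manganese and polyethylene glycol. In both Pkd1-/- groups the gene was deleted by tamoxifen through a Cre fused to the estrogen receptor (Pkd1 fl/fl;Cre/Esr1+), a Cre that is not limited to the DBA-positive cells. Whether the WT mice carried that Cre, and whether each library came from 1 mouse or a pool, were not clear from the sources used here, so P values measure the spread between these libraries, which may be technical.

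Endothelial cells line blood vessels and hold together through VE-cadherin and other adhesion proteins. They read VEGF through the receptors Kdr and Flt1, angiopoietins through the Tie receptors, and circulating BMP ligands through endoglin. The kidney holds several kinds, among them the fenestrated endothelium of the glomerulus, which lies beside podocytes and lacks most fenestral diaphragms, and the peritubular capillaries, whose fenestrae are closed by diaphragms built from Plvap. DBA binds collecting duct cells and is used to isolate them. In bulk RNA, fewer endothelial cells and less RNA per endothelial cell cannot be told apart.

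The labelled cell type was present by its markers. Aqp2, the water channel of collecting duct principal cells, reached 677 to 3555 FPKM (fragments per kilobase of exon, scaled to the mapped fragments of the library), and the summed FPKM of 8 principal cell genes ran from 949 to 5455. ADPKD replicate 2 had the lowest principal cell sum. The ADPKD+MMPP libraries stood apart in ways other than treatment. They held 10.9M and 11.8M reads against 30.6M to 33.1M in the other 4 libraries, and 14 proximal tubule genes summed to 22559 and 23730 FPKM against 611 to 2058. Of low read numbers recovered from the FPKM steps, 7.17% and 7.67% were odd in the ADPKD+MMPP libraries, against 35.2% to 37.2% in the others. Treatment and these differences in the libraries cannot be told apart.

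All 10 genes passed the filter of at least 1 FPKM in at least 2 libraries, as did 14862 genes in all. In WT, the genes were among the more abundant transcripts of the preparation. Eng averaged 356 ± 29.3 FPKM (SD, n = 2), above 99.5% of tested genes. Cdh5 (149 ± 25.1), Emcn (149 ± 21.4), Kdr (142 ± 26.5), Ehd3 (142 ± 11.1), Plvap (136 ± 13.3) and Pecam1 (136 ± 14.3) followed, and neighbours in this order differed by less than their spread. Tie1 averaged 102 ± 4.44 FPKM, and Egfl7 (42.6 ± 1.44) and Flt1 (41.6 ± 1.35) were the lowest and did not differ beyond their spread.

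**Figure D1:**
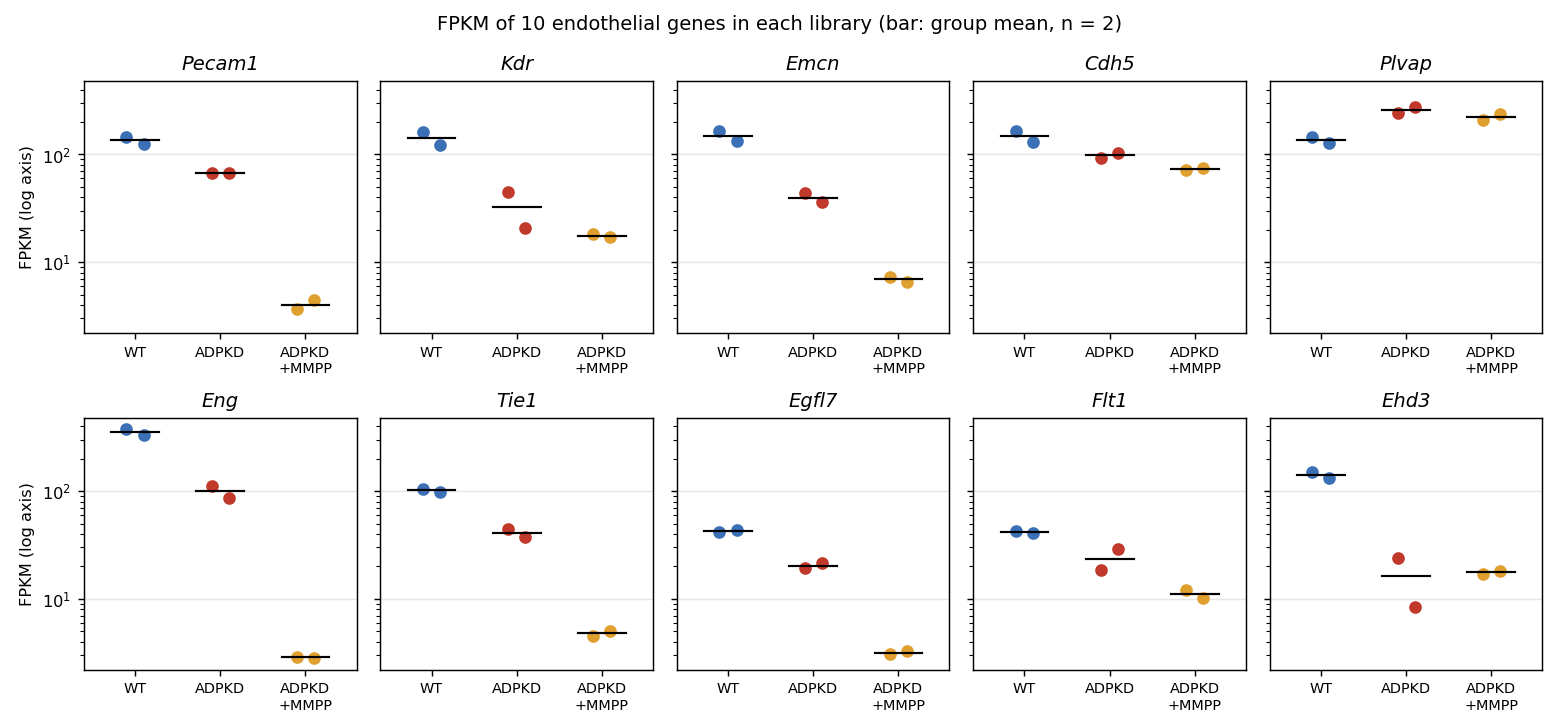
FPKM (log axis) of each of the 10 genes in the 6 libraries, with 1 point per library and a bar at the mean of the 2 libraries of each group. In ADPKD 9 genes lay below WT and Plvap above it, and in ADPKD+MMPP Eng, Pecam1, Tie1, Egfl7 and Emcn were at 7.36 FPKM or less while Plvap was at 208 and 236.

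The first comparison asked whether the endothelial genes differed between ADPKD and WT. Each of the 10 did. In ADPKD 9 were lower and Plvap was higher. A gene is called where its groups differ 1.5-fold or more with P under 0.05, in limma on log2(FPKM + 1). Over all tested genes 12.5% were called lower and 14.2% higher. The median log2 fold change of the 10 genes was -1.17, against 0.03 over all tested genes. Fold changes in FPKM below are ratios of the group means, and adjusted p are Benjamini-Hochberg values over all tested genes.

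Among the adhesion and surface proteins, Pecam1 (CD31, an adhesion molecule that leukocytes and platelets also carry) was 146 and 126 FPKM in WT and 67.5 and 67.9 in ADPKD. Its ADPKD libraries were close to each other and both below WT, a 2.01-fold fall (log2 -0.99, SE 0.14, limma adjusted p = 0.00736). Emcn, a sialomucin of capillary and venous endothelium, was 164 and 134 in WT and 43.6 and 35.9 in ADPKD, 3.75-fold lower (log2 -1.88, SE 0.17, limma adjusted p = 0.00332). Cdh5 encodes VE-cadherin, the cadherin of endothelial junctions. It was 167 and 131 FPKM in WT and 93.3 and 104 in ADPKD, so the lower WT and the higher ADPKD library lay close together. Its fall was 1.51-fold, at the threshold for a call (log2 -0.59, SE 0.16, limma adjusted p = 0.0423), and was not called without WT replicate 1 (-0.41) or without ADPKD replicate 1 (-0.51).

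The receptors for VEGF both fell. Kdr (VEGFR2, the main signalling receptor) was 161 and 123 FPKM in WT and 44.9 and 20.7 in ADPKD, 4.32-fold lower (log2 -2.16, SE 0.36, limma adjusted p = 0.0109). Both ADPKD libraries were well below WT, and ADPKD replicate 2 was the lower. Flt1 (VEGFR1, which binds VEGF tightly and limits what reaches Kdr) was 42.6 and 40.7 in WT and 18.5 and 28.9 in ADPKD, 1.76-fold lower (log2 -0.82, SE 0.22, limma adjusted p = 0.0447). Here ADPKD replicate 2 was the higher of the pair, and the call was lost without WT replicate 1 (-0.79) or without ADPKD replicate 1 (-0.51). The ratio of Kdr to Flt1 within a library was 3.77 and 3.03 in WT and 2.43 and 0.719 in ADPKD, which does not depend on how libraries are scaled.

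Tie1, the orphan receptor that pairs with the angiopoietin receptor Tek, was 105 and 99.1 FPKM in WT and 44.4 and 37.3 in ADPKD, 2.50-fold lower (log2 -1.31, SE 0.14, limma adjusted p = 0.00420). Eng (endoglin, the co-receptor that presents BMP ligands to ALK1) was 377 and 335 in WT and 112 and 87.4 in ADPKD, 3.56-fold lower (log2 -1.83, SE 0.16, limma adjusted p = 0.00332). Both receptors were separated from WT by more than the spread within either group. Egfl7, a secreted protein of the vessel wall whose gene also holds the microRNA miR-126, was 41.6 and 43.6 in WT and 19.3 and 21.5 in ADPKD, 2.09-fold lower (log2 -1.03, SE 0.12, limma adjusted p = 0.00487). Agpat2 overlaps Egfl7 on the opposite strand and its own FPKM summed to 34.6% of that of Egfl7 over the 6 libraries. The methods do not state strand for the counting, so reads of the pair cannot be told apart. Agpat2 was 7.98 and 8.36 FPKM in WT and 14.9 and 12.8 in ADPKD, the opposite direction.

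Ehd3 and Plvap moved furthest apart. Ehd3, an endocytic recycling protein that in the kidney is known from glomerular endothelium, was 150 and 134 FPKM in WT and 24.2 and 8.39 in ADPKD. Both ADPKD libraries were far below WT and differed from each other, and the fall was 8.70-fold (log2 -3.21, SE 0.44, limma adjusted p = 0.00684). Without ADPKD replicate 2 the log2 fold change was -2.50, and without ADPKD replicate 1 it was -3.92. Plvap, the protein of fenestral and caveolar diaphragms, was 146 and 127 in WT and 242 and 277 in ADPKD. It was the member that rose, by 1.90-fold (log2 0.92, SE 0.15, limma adjusted p = 0.00996). The rise is not called when a 2-fold difference is required.

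Ratios between members within a library show the unequal change without any scaling. Plvap to Cdh5 was 0.874 and 0.966 in WT and 2.59 and 2.67 in ADPKD, 2.87-fold higher. Ehd3 to Cdh5 was 0.896 and 1.02 in WT and 0.259 and 0.0809 in ADPKD, 6.60-fold lower. Plvap and Ehd3 were nearly equal in WT, with ratios of 0.975 and 0.949. In ADPKD that ratio was 18.9-fold higher and reached 33.0 in replicate 2. For each of these 3 ratios the WT and ADPKD libraries did not overlap, and the exact two-sided permutation test gave p = 0.333, the smallest that 2 against 2 libraries allow.

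**Figure D2:**
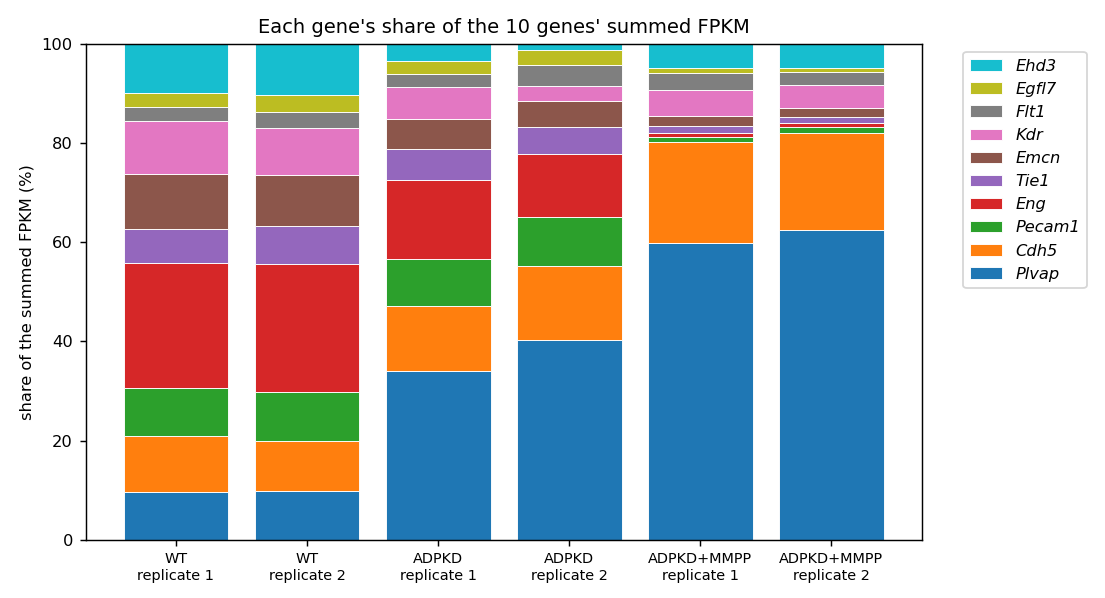
Stacked bars of each gene's share (%) of the summed FPKM of the 10 genes in each of the 6 libraries. Plvap made up 9.72% and 9.81% of the sum in WT, 34.1% and 40.2% in ADPKD, and 59.8% and 62.4% in ADPKD+MMPP, while Eng went from 25.1% and 25.9% to 0.836% and 0.742%.

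The summed FPKM of the 10 genes was 1499 and 1294 in WT, 710 and 689 in ADPKD and 348 and 378 in ADPKD+MMPP. The groups did not overlap. Without Plvap the sums were 1353 and 1167, 468 and 411, and 140 and 142. These sums add a gene that rose to genes that fell, and a summed level therefore rested increasingly on Plvap.

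The position of the genes was taken from GENCODE vM21 on GRCm38. Of the members described by their sequence, Eng spans chr2:32646595-32682669 on the plus strand, Emcn chr3:137341067-137432185 on the plus strand, and Flt1 chr5:147561604-147726011 on the minus strand. RefSeq (GRCm38.p6) gave a promoter for 7 of the 10 genes, and Pecam1, Cdh5 and Plvap had no entry in the table. The 250 bases before the RefSeq start are printed for these 3 members, which were called lower both in ADPKD against WT and in ADPKD+MMPP against ADPKD. Capitals mark GGAA, the core bound by ETS factors such as Erg and Fli1 that many endothelial promoters carry, or TTCC, the same core on the other strand.
Eng, chr2:32646345-32646594, plus strand: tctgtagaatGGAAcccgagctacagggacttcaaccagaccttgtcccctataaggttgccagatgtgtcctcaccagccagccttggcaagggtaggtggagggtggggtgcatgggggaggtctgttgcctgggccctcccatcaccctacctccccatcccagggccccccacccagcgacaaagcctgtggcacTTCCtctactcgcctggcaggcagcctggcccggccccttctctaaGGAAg
Emcn, chr3:137340828-137341077, plus strand: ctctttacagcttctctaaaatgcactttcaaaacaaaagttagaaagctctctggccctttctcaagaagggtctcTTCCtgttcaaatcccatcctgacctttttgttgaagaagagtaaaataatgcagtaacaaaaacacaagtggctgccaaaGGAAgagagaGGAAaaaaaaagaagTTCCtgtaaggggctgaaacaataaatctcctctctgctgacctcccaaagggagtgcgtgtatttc
Flt1, chr5:147726012-147726261, minus strand: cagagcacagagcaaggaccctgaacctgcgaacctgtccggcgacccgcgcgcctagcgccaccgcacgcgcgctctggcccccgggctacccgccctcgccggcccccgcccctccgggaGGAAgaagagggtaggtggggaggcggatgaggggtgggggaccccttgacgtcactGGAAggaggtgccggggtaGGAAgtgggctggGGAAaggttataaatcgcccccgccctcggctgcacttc
The core occurred 3 times before Eng and 4 times before Emcn and Flt1. It was in all 7 member promoters, and also in 93.4% of 32851 RefSeq promoters of this length, so its presence sets the members apart from few genes. The longer GGAAG (or CTTCC on the other strand), which contains the core, was in 6 of the 7, Ehd3 excepted, and in 64.1% of all promoters. These strings were chosen after several were tried, and a match is a description of letters and not a bound site.

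The second comparison asked whether the endothelial genes changed with MMPP. It shares the ADPKD libraries with the first comparison and the ADPKD+MMPP libraries with the third, so the comparisons are not independent. With the values as deposited, 6 of the 10 genes were called lower in ADPKD+MMPP than in ADPKD (Eng, Pecam1, Tie1, Egfl7, Emcn and Flt1), and 4 were not called. Of all tested genes 43.0% were called lower and 27.9% higher. The median log2 fold change was -1.67 for the 10 genes and -0.36 over all tested genes.

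Eng fell from 112 and 87.4 FPKM to 2.91 and 2.81, or 34.9-fold (log2 -4.70, SE 0.16, limma adjusted p = 2.21e-05). Pecam1 fell from 67.5 and 67.9 to 3.64 and 4.41, or 16.8-fold (log2 -3.78, SE 0.14, limma adjusted p = 2.21e-05). Both genes went from the upper levels of the preparation to that of a mid-ranked gene, with Eng above 49.1% of tested genes and Pecam1 above 56.0%. Tie1 went from 44.4 and 37.3 to 4.51 and 5.07 FPKM, 8.52-fold lower (log2 -2.85, SE 0.14, limma adjusted p = 3.52e-05). Egfl7 went from 19.3 and 21.5 to 3.07 and 3.25, 6.44-fold lower (log2 -2.36, SE 0.12, limma adjusted p = 3.80e-05). Agpat2, its partner on the other strand, was also lower, at 0.636 and 1.12 FPKM.

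Emcn went from 43.6 and 35.9 FPKM to 7.36 and 6.54, 5.72-fold lower (log2 -2.35, SE 0.17, limma adjusted p = 9.15e-05). Flt1 went from 18.5 and 28.9 to 12.1 and 10.2, 2.12-fold lower (log2 -0.99, SE 0.22, limma adjusted p = 0.00793). The read numbers behind the low values remained countable, with about 124 reads for Eng in ADPKD+MMPP replicate 2 as the lowest of any member in any library and 46603 reads for Eng in WT replicate 1 as the highest.

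The 4 other genes changed less. Kdr was 18.1 and 17.2 FPKM after MMPP, below both ADPKD libraries but near ADPKD replicate 2 (log2 -0.76, SE 0.36, limma adjusted p = 0.0984), and it was called lower without that library (-1.30). Cdh5 was 71.3 and 74.4, also below both, with a fold change under 1.5 (log2 -0.43, SE 0.16, limma adjusted p = 0.0467), and it was called lower with a common FPKM sum (-0.74) or quantile normalization (-0.73). Plvap was 208 and 236 FPKM, just below the lower ADPKD library (log2 -0.22, SE 0.15, limma adjusted p = 0.210). Ehd3 was 17.0 and 18.2 FPKM, between the 2 ADPKD libraries (log2 0.27, SE 0.44, limma adjusted p = 0.589). Its direction rested on the ADPKD library used: it was called higher without ADPKD replicate 1 (0.98) and was -0.44 without ADPKD replicate 2. Libraries scaled to a common FPKM sum also turned it (-0.0088), and factors from the median of ratios turned Plvap (0.089).

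The size of the fall moved with the transcript structure of the gene. The measure was the share of exon bases that GENCODE vM21 places in exactly 1 transcript of the gene, which is 100% for a gene with 1 transcript. Eng, with 6 transcripts, had 15.5% of its exon bases in exactly 1 of them and fell most, and Tie1 (22.5%), Pecam1 (43.5%) and Egfl7 (48.6%, 19 transcripts) also fell far. Kdr (74.9%), Ehd3 (90.4%), Cdh5 (96.7%) and Plvap (100%, 1 transcript) were the 4 genes not called. Flt1 (82.2%) lay among those 4 in exon share and Emcn (73.2%) just below them, and both were called lower. Over the 10 genes Spearman's rank correlation between this share and the log2 fold change was 0.939. Over 12375 tested protein-coding genes, which share the same 6 libraries, it was 0.649. In ADPKD against WT the values were 0.345 over the 10 genes and 0.0451 over the protein-coding genes.

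**Figure D3:**
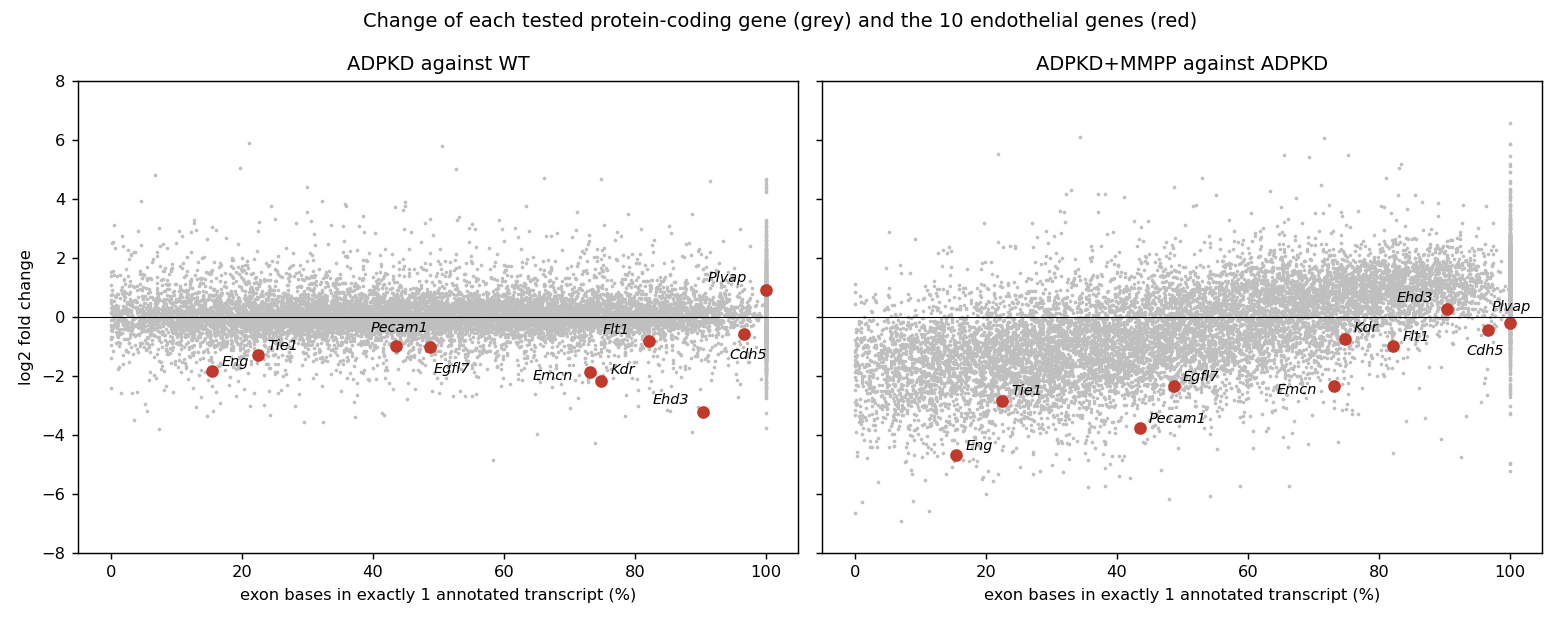
Log2 fold change (vertical axis) of 12375 protein-coding genes (grey) and the 10 endothelial genes (red) against the percentage of exon bases held by exactly 1 annotated transcript (horizontal axis), for ADPKD against WT on the left and ADPKD+MMPP against ADPKD on the right. The cloud of all genes was flat on the left (Spearman 0.0451) and rose with the share on the right (0.649), and the 10 genes lay mostly in its lower part.

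Genes with a single transcript give a reference for Plvap. Of 1309 tested protein-coding genes with 1 transcript, 70.0% were called higher and 6.57% lower in ADPKD+MMPP than in ADPKD, with a median log2 fold change of 1.10. Plvap, at -0.22, was below that median. With each library centred within 20 bins of the exon share, over protein-coding genes, 9 of the 10 members were called lower and none higher. In that fit 24.4% of genes were called lower. The centred log2 fold changes were -2.84 for Emcn, -2.83 for Eng, -2.78 for Pecam1, -1.84 for Flt1, -1.56 for Egfl7, -1.51 for Cdh5, -1.38 for Plvap, and -1.24 for both Tie1 and Kdr. Ehd3 was the gene not called, at -0.81 (limma adjusted p = 0.132). The centred median of the 10 genes was -1.54, against 0.15 over all genes centred. The same centring left ADPKD against WT with 9 members lower and 1 higher, where 13.9% and 13.6% of genes were called.

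Scaling also moved the balance of calls over all genes. As deposited, 39.3% of the calls in ADPKD+MMPP against ADPKD were higher, and the share was 54.0% after quantile normalization and 58.2% after centring. The median log2 fold change over all tested genes went from -0.36 to 0.10 after quantile normalization and to -0.73 with a common FPKM sum. Under quantile normalization the median of the 10 genes was -1.39.

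**Figure D4:**
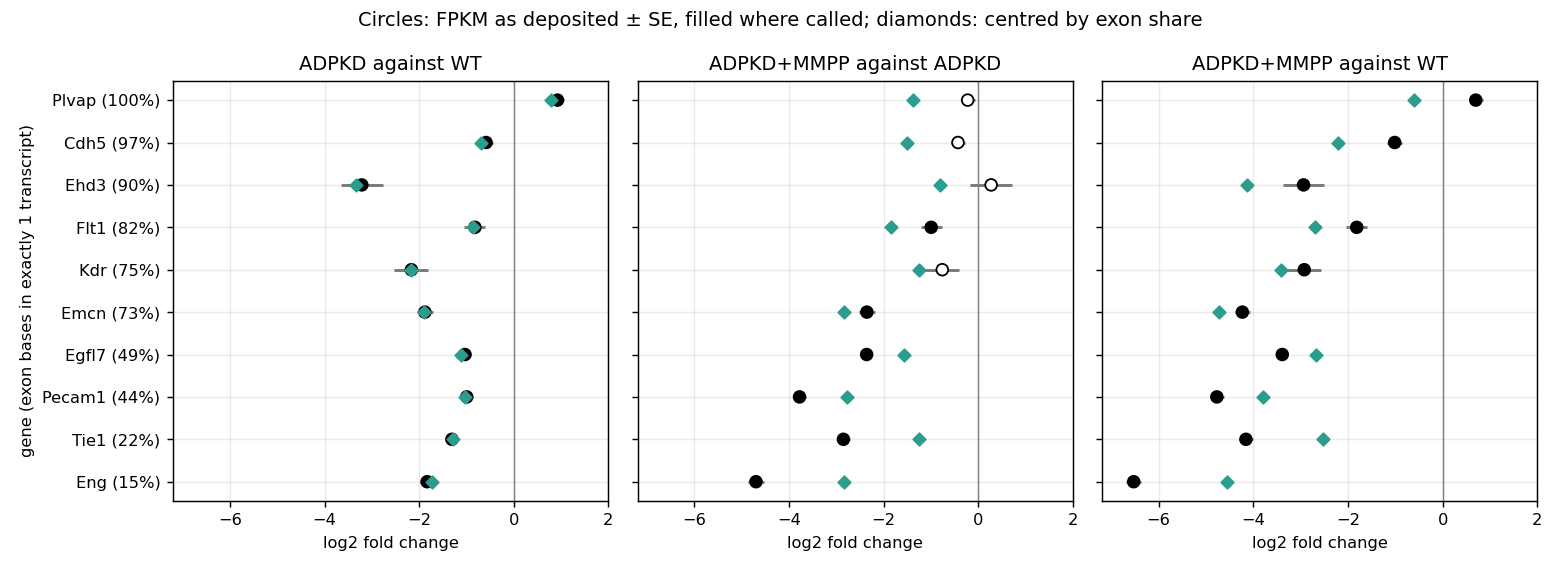
Log2 fold change of each of the 10 genes (rows, with the percentage of exon bases held by 1 transcript only) in the 3 comparisons, as circles with SE bars for the deposited FPKM (filled where called) and as diamonds after centring by that share. The diamonds lay close to the circles in ADPKD against WT, while in the comparisons with ADPKD+MMPP they moved Eng from -4.70 to -2.83 and Plvap from -0.22 to -1.38 (second panel).

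Against WT, which both earlier comparisons touch through shared libraries, ADPKD+MMPP had 9 of the 10 genes lower and Plvap higher. Of all tested genes 43.8% were called lower and 30.1% higher, and of the single-transcript genes 11.8% were lower and 70.1% higher. The falls ran from Eng (log2 -6.53, SE 0.16, limma adjusted p = 1.47e-05), through Pecam1 (-4.77), Emcn (-4.23), Tie1 (-4.16), Egfl7 (-3.39), Ehd3 (-2.94), Kdr (-2.92) and Flt1 (-1.82), to Cdh5 (-1.01, SE 0.16, limma adjusted p = 0.00156). Plvap was 0.70 higher (SE 0.15, limma adjusted p = 0.00566) as deposited and turned to -0.60 after centring, where all 10 genes were called lower and 26.7% of genes were. The median over the 10 genes was -3.16 as deposited and -3.06 centred.

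Ratios among members with mostly unshared exons kept the ADPKD pattern after MMPP. Plvap to Cdh5 was 2.91 and 3.18, above both ADPKD values. Ehd3 to Cdh5 was 0.238 and 0.244, and Plvap to Ehd3 was 12.2 and 13.0. Both lay between the ADPKD values and away from the WT values. Plvap to Pecam1, a pair of unlike transcript structure, was 0.996 and 1.01 in WT, 3.58 and 4.08 in ADPKD and 57.1 and 53.5 in ADPKD+MMPP.

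A list of 25 other pan-endothelial genes moved in the same main direction in ADPKD. In ADPKD against WT 18 were called lower and 2 higher, with a median log2 fold change of -0.84. The shares of all tested genes in that comparison, 12.5% lower and 14.2% higher, stand beside these counts and those of every list below. The 4 most abundant were all lower: S1pr1, the sphingosine 1-phosphate receptor (142 and 109 FPKM in WT, 64.3 and 78.5 in ADPKD), the tight junction protein Cldn5 (95.8 and 96.0, then 52.0 and 38.2), the matrix protein Mmrn2 (108 and 89.2, then 45.9 and 35.2) and the adhesion molecule Esam (97.4 and 88.0, then 43.5 and 45.4). The 2 genes that rose were Gpihbp1, which holds lipoprotein lipase on capillaries (log2 0.72), and the surface receptor Cd93 (0.66), named after their values were seen. Neither was called without WT replicate 2 or without ADPKD replicate 2, where 0 of the 25 were higher. The summed FPKM of the 25 genes was 1195 and 1036 in WT, 626 and 642 in ADPKD and 429 and 428 in ADPKD+MMPP.

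In ADPKD+MMPP against ADPKD 17 of the 25 were called lower and 2 higher, where 43.0% and 27.9% of all tested genes were. Against WT 21 were lower and none higher, beside 43.8% and 30.1% of all tested genes. Cldn5 (0.90) and Clec14a (1.03), a C-type lectin of endothelium, were the 2 that rose against ADPKD, and each has 1 transcript. After centring none of the 25 was called higher and 14 were called lower, where 33.9% and 24.4% of genes were. Among the 9 endothelial genes with 1 transcript (Plvap and 8 of the 25) the median log2 fold change was -0.80 in ADPKD against WT, with 6 lower and 2 higher. It was -0.22 in ADPKD+MMPP against ADPKD, with 4 lower and 2 higher. There the 1309 single-transcript genes had a median of 1.10, with 6.57% called lower and 70.0% higher.

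Ehd3 was read beside other glomerular genes. Of 6 genes listed for glomerular endothelium, Ehd3 included, all 6 were lower in ADPKD, with a median log2 fold change of -2.51. A fall of that size was not particular to them, since 8 intercalated cell genes had a median of -2.42. Plat, the tissue plasminogen activator, was 861 and 747 FPKM in WT, 183 and 135 in ADPKD and 91.0 and 89.2 in ADPKD+MMPP. The secreted protein Pi16 was 53.5 and 59.9, then 12.9 and 4.87, then 6.87 and 6.01. Tbx3, a transcription factor of the glomerular capillary, was 32.4 and 28.4, then 11.0 and 8.27, then 0.179 and 0.111. The list summed to 1124 and 994 in WT, 234 and 157 in ADPKD and 115.5 and 115.3 in ADPKD+MMPP.

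Podocyte genes, from the cells that cover the same capillaries, were also lower in ADPKD. All 9 were called lower, with a median of -2.57, and their sum was 1098 and 1512 in WT, 278 and 147 in ADPKD and 134 and 139 in ADPKD+MMPP. Podxl (podocalyxin, which endothelium also makes) was 475 and 609 FPKM in WT and 114 and 56.8 in ADPKD. ADPKD replicate 2 was the lower ADPKD library for Podxl, as it was for Ehd3, Kdr and Pi16. With the values as deposited, 5 of the 9 were called lower in ADPKD+MMPP than in ADPKD and none higher, near the 43.0% of all tested genes called lower. Centred by exon share, 8 of the 9 were called lower and none higher, with a median of -1.27, where 24.4% of genes were lower. The part of glomerular material in the fall of the 10 genes was not tested.

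**Figure D5:**
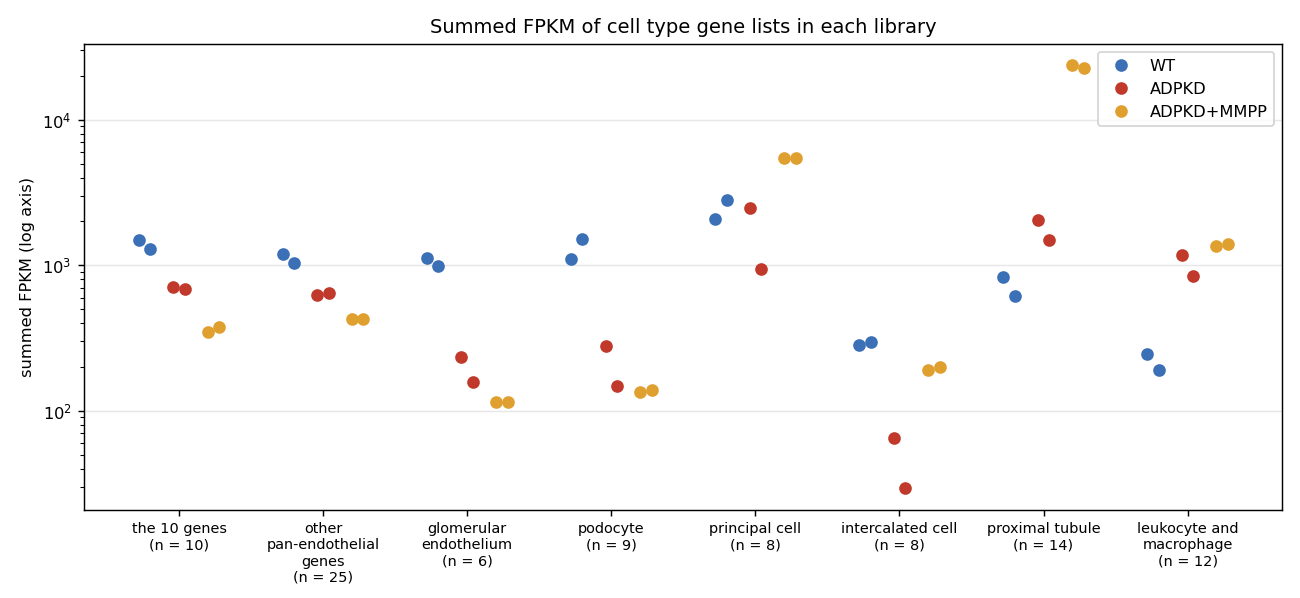
Summed FPKM (log axis) of lists of cell type genes in each library, 1 point per library, with the number of genes in each list. The endothelial, glomerular and podocyte lists fell from WT to ADPKD, while the proximal tubule list rose from 2058 or less to 22559 and 23730 in ADPKD+MMPP.

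Markers of leukocytes and macrophages were mostly higher in ADPKD. Of 11 tested leukocyte and macrophage genes (of 12 listed), 10 were higher and 1 lower in ADPKD than in WT, and the list summed to 248 and 192 FPKM in WT, 1185 and 846 in ADPKD and 1350 and 1390 in ADPKD+MMPP. Between ADPKD+MMPP and ADPKD the list split as deposited, with 5 higher, 5 lower and a median log2 fold change of -0.94. Of all tested genes 27.9% were called higher and 43.0% lower. Centred by exon share, 2 of the list were higher and 2 lower, with a median of -0.098, beside 33.9% and 24.4% of genes. Lyz2 (lysozyme of macrophages) was 7.63 and 8.69 FPKM in WT, 188 and 224 in ADPKD and 568 and 565 in ADPKD+MMPP. The complement gene C1qa was 14.3 and 11.6, then 115.2 and 140.8, then 241 and 271. As deposited, both rose at each step. Each has 1 transcript, a class in which 70.0% of protein-coding genes were called higher in ADPKD+MMPP than in ADPKD. Centring took the log2 fold change of Lyz2 in that comparison from 1.46 to 0.304, and that of C1qa to -0.158. Csf1r, the receptor that defines macrophages, was 8.04 FPKM or less in WT, then 17.0 and 25.6, then 0.381 and 0.190. Its log2 fold change between the latter groups was -4.09 as deposited and -2.61 centred. Ptprc (CD45), the defining marker of leukocytes, was at most 3.26. Of 5 tested platelet and erythrocyte genes (9 listed), 1 was higher in ADPKD and none lower. It was the platelet gene Pf4, at 0.680 and 0.179, then 10.1 and 23.5, then 12.2 and 14.7. The platelet integrin Itga2b was 1.45 and 1.62, then 1.29 and 1.53, then 1.65 and 1.75, and the globin gene Hba-a1 was 2.86 and 4.81, then 2.35 and 1.46, then 1.043 and 0. Pecam1, Eng and Flt1 can also be made by leukocytes, macrophages or platelets, and the part of those cells in the levels of these 3 genes was not tested.

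The signalling partners of the receptors were read from 2 lists. Of 13 VEGF and angiopoietin ligands, co-receptors and partners, 5 were lower and 3 higher in ADPKD. Vegfa, the ligand of Kdr and Flt1, which podocytes and tubules make, was 147 and 210 FPKM in WT, 65.4 and 57.3 in ADPKD and 10.5 and 10.4 in ADPKD+MMPP. In ADPKD+MMPP against ADPKD the log2 fold change of Vegfa was -2.44 as deposited and -0.53 after centring by exon share. Nrp1, a co-receptor for Vegfa, was 92.9 and 74.5, then 25.5 and 8.44, then 15.5 and 15.8. It was called lower in ADPKD but not further with MMPP. Angpt2, the angiopoietin released by activated endothelium, was 40.1 and 34.4, then 12.3 and 13.4, then 11.6 and 10.3. Vegfb was 20.2 and 15.8, then 29.9 and 18.9, then 33.9 and 29.6, and was called higher in ADPKD+MMPP against WT alone among the comparisons. In ADPKD+MMPP against ADPKD the list had 4 lower and 3 higher, and against WT 7 lower and 4 higher. The former shares were below those of all tested genes (43.0% and 27.9%), and the latter stand beside 43.8% and 30.1%.

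For endoglin, 10 of 13 genes of its ALK1 pathway were tested, and 3 were lower and none higher in ADPKD. Acvrl1 (ALK1, the receptor that endoglin serves) was among them, named here for its role, at 51.4 and 47.6 FPKM in WT, 20.1 and 11.1 in ADPKD and 1.79 and 1.63 in ADPKD+MMPP. The ligands Gdf2 (BMP9) and Bmp10, which come from liver and heart, were at 0.108 FPKM or less in every library. The target Id1 was 339 and 344, then 256 and 219, then 93.7 and 90.7, and Id3 was 242 and 268, then 204 and 199, then 231 and 219. Id1 and Id3 were not called in ADPKD, and tubules also make them. With MMPP 3 of the 10 were lower (Acvrl1, Id1 and Id2) and 2 higher than in ADPKD, smaller shares than the 43.0% and 27.9% of all tested genes. After centring by exon share the log2 fold change of Id1 turned from -1.35 to 0.52. That of Acvrl1 went from -2.56 to -0.64 and that of Id2 from -3.42 to -2.63.

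Endothelial transcription factors were mostly lower in ADPKD. Erg, Sox7, Sox17 and Sox18 of this list are also in the list of other pan-endothelial genes. Of 14 tested (15 listed), 9 were lower and none higher in ADPKD, 8 lower and none higher in ADPKD+MMPP against ADPKD (43.0% of all tested genes lower), and 13 lower and none higher against WT (43.8%). Klf2, induced by flow, was 483 and 490 FPKM in WT, 296 and 235 in ADPKD and 293 and 305 in ADPKD+MMPP. Epas1 (HIF2A, also made by other kidney cells) was 337 and 301, then 99.2 and 69.2, then 95.9 and 102. Both were lower in ADPKD and, as deposited, neither was called between ADPKD+MMPP and ADPKD. Centring by exon share moved the latter log2 fold change from 0.18 to -0.98 for Klf2 and from 0.25 to -0.83 for Epas1. Centred, 10 of the 14 were called lower there and 1 higher, where 24.4% and 33.9% of genes were. The Sox factors differed, since Sox18 (54.5 and 53.6, then 23.8 and 28.1) was lower in ADPKD, while Sox7 (58.9 and 49.1, then 53.4 and 51.4) was not called.

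The genes nearest to the mean profile of the 10 members were named by distance in log2(FPKM + 1) centred per gene, over the 6 libraries. They were Ltbp1, Acer2, Gimap1, Notch4, Ppp1r16b, Rapgef4, Eml1 and Axl, at distances of 0.205 to 0.361. Notch4, a Notch receptor of endothelium, was 36.5 and 35.7 FPKM in WT, 12.9 and 11.4 in ADPKD and 2.98 and 3.52 in ADPKD+MMPP. The members themselves were spread widely around that mean, from Egfl7 at rank 113 to Plvap at rank 10313 of the tested genes. Over the 4 WT and ADPKD libraries the nearest were Tns3, Gpr146, Nt5e, Snx32, Tbc1d2b, Nsg1, Birc2 and Gypc (0.0737 to 0.0966), none of which was among the 8 nearest over 6 libraries. There Tie1 lay closest to the mean of the members and Plvap was at rank 13503.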

How the data were processed

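RNA selected by oligo(dT) from DBA-positive kidney cells was sequenced in 6 libraries, 2 per group, grouped by the titles and genotype and agent labels. The labels speak both of DBA-positive cells and of whole kidney RNA, and the study's methods describe the former. Per the submitters' processing notes, the authors aligned reads with HISAT2 2.1.0 to mm10 and counted them with featureCounts 1.6.0. The authors deposited FPKM (fragments per kilobase, scaled to mapped fragments) for each library. The annotation release, the FPKM step and the strand setting were not given in the sources used here.

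FPKM are not counts, so no count model was used. The 14862 genes that reached 1 FPKM in 2 or more libraries entered 1 fit of all 6 libraries in limma (version 3.58.1, under R 4.3.3), on log2(FPKM + 1), with Benjamini-Hochberg adjustment. The log2 fold changes are on that scale and understate changes of low genes. A call needed a fold change of at least 1.5 and an unadjusted P under 0.05, the thresholds of the study's methods. Exon lengths and transcript structure came from GENCODE vM21, in which 53186 of the 55367 symbols matched 1 gene. The product of FPKM and exon length sat on whole-read steps (within 0.05 of a whole number for 98.3% to 98.9% of low values), which gave depth in reads and the share of odd read numbers. These depths were inferred and limit the precision of low values. Precision beyond that rests on the 2 libraries per group. Ratios were compared by exact two-sided permutation tests.

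The 10 members and all other lists were chosen with earlier results of these data known. Named genes were all members, up to 4 genes of each other list with the highest mean FPKM, and the 8 genes nearest to the members' mean profile. Acvrl1, Gpihbp1, Cd93, Clec14a, Agpat2, Csf1r, the ligands Gdf2 and Bmp10, and the defining markers Ptprc, Lyve1 and Mmrn1 were named outside that rule. Tek, Erg, Fli1, Sox17 and Vwf were also named outside it, without values. Some genes that the rule selects are not reported here. Alternatives covered the pseudocount, filter, scaling, variance model, libraries in the fit, call rule, replicate number as a block, each library left out, and centring within 20 bins of exon share. The fit was tested on simulated data. The replicate numbers were not taken to pair libraries, since deviations from the group means correlated by 0.129, -0.01 and 0.01 between same-numbered libraries of the 3 pairs of groups.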

Additional observations from a re-analysis of the deposited data

How the results depend on the processing

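Under 18 alternatives, 514 of 540 values of single members kept their direction and their side of the threshold. In ADPKD against WT no direction turned. Called higher members there were 0 at a fold change of at least 2, and called higher pan-endothelial genes were 1 with a common FPKM sum, 0 at a fold change of at least 2, 1 after centring by exon share and 0 to 2 with each library left out. Of the 14862 tested genes, 2070 were called higher with a common FPKM sum and 1016 at a fold change of at least 2. After centring 13.6% of genes were called higher. The median of the members was -1.28 with a common FPKM sum and -1.30 after quantile normalization.

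For ADPKD+MMPP against ADPKD, the members' median was -1.77 with a pseudocount of 0.1, -2.05 with a common FPKM sum, -1.38 with median-of-ratios factors, -1.39 after quantile normalization, -1.54 centred, and -1.79 to -1.58 with each library left out. Called higher pan-endothelial genes were 4 with median-of-ratios factors, 1 at a fold change of at least 2 and 0 centred. Those called lower were 11 at a fold change of at least 2. Of the 14862 tested genes, 4955 were called higher with median-of-ratios factors. At a fold change of at least 2, 2801 were called higher and 5057 lower. Centred, 33.9% of genes were called higher. Members called higher were 0 to 1 with each library left out, Ehd3 being called without ADPKD replicate 1 (0.98). Ehd3 turned to -0.0088 with a common FPKM sum, -0.44 without ADPKD replicate 2 and -0.81 centred, and Plvap to 0.089 with median-of-ratios factors. The cause was not tested.

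For ADPKD+MMPP against WT, the members' median was -3.36 with a pseudocount of 0.1, -3.69 with a common FPKM sum, -2.94 with median-of-ratios factors, -3.06 centred, and -3.23 to -3.14 with each library left out. Members called higher were 0 with a common FPKM sum, quantile normalization, a fold change of at least 2 or centring. Of the 14862 tested genes, 3665 were called higher with a common FPKM sum and 5482 after quantile normalization. At a fold change of at least 2 it was 3203, and centred it was 35.8% of genes. Plvap turned to -0.60 centred. The cause was not tested.

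With the replicate number as a block, Kdr (-0.76) was called lower in ADPKD+MMPP against ADPKD and no other member's call changed. The block gave 2151 higher and 1904 lower genes in ADPKD against WT, where the fit without it gave 2109 and 1861. For pairing, the titles give only a replicate number, so whether same-numbered libraries were handled together is not known.

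The ADPKD+MMPP libraries had 10.9M and 11.8M reads, the lowest depths, and 2 libraries per group set the precision of every mean.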

Other observations

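Lists of vessel types were read beside the 10 genes. Of 10 genes of arterial endothelium 7 were lower and none higher in ADPKD than in WT. Sema3g, a semaphorin of arterial cells, was 252 and 321 FPKM in WT, 71.4 and 30.3 in ADPKD and 70.6 and 72.9 in ADPKD+MMPP, and the Notch ligand Dll4 was 143 and 113, then 70.3 and 59.9, then 38.9 and 39.9. The ephrin Efnb2 was 77.7 and 69.5, then 35.1 and 31.6, then 29.6 and 28.6. Gja4, a connexin with 1 transcript, was 26.5 and 26.6, then 7.95 and 9.13, then 23.4 and 21.4. It was called lower in ADPKD and higher in ADPKD+MMPP against ADPKD. Centring by exon share took its log2 fold change in the latter comparison from 1.30 to 0.14. In ADPKD+MMPP against ADPKD the list had 4 lower and 2 higher, against 43.0% and 27.9% of all tested genes. Centred, 3 were lower and 2 higher, beside 24.4% and 33.9% of genes.

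Venous genes went less one way. Of 5 tested (6 listed) 1 was higher and 1 lower in ADPKD. Selp, the P-selectin of activated endothelium and platelets, was 1.31 and 0.959 FPKM in WT, 9.01 and 26.6 in ADPKD and 1.82 and 2.89 in ADPKD+MMPP. Sele (E-selectin) was 73.9 and 32.2, then 42.3 and 49.3, then 5.93 and 6.11. Ephb4 was 22.9 and 23.5, then 13.1 and 15.5, then 0.840 and 0.672. With MMPP 4 of the 5 were called lower than in ADPKD, where 43.0% of all tested genes were. Centred by exon share, 3 of the 5 were called lower, beside 24.4% of genes. That centring moved the log2 fold change of Ephb4 from -3.12 to -1.01.

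Of 4 tested genes of lymphatic endothelium (7 listed) 1 was higher and none lower in ADPKD. Flt4 (VEGFR3, which blood endothelium also makes) was 6.68 to 10.1 FPKM in all 6 libraries and was not called. The defining gene Lyve1 was at 0.874 FPKM or less, Mmrn1 at 0.106 or less and Prox1 at 2.23 or less in every library. Pdpn, which podocytes also make, was 18.4 and 29.5 FPKM in WT, 57.4 and 62.9 in ADPKD and 90.6 and 89.0 in ADPKD+MMPP, the reverse of the podocyte list.

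Of 12 tested genes of pericytes, smooth muscle and fibroblasts (13 listed), the cells around vessels, 5 were higher and 4 lower in ADPKD. Pdgfrb was 91.3 and 65.6 FPKM in WT, 38.9 and 31.4 in ADPKD and 1.05 and 0.837 in ADPKD+MMPP. Col1a1 was 0.364 and 0.389, then 32.3 and 33.4, then 61.6 and 70.1. In ADPKD+MMPP against ADPKD, centring by exon share moved the log2 fold change of Pdgfrb from -4.21 to -2.10. It moved that of Col1a1 from 0.98 to -0.11. Intercalated cell genes, all 8 of them, were lower in ADPKD, so a fall in ADPKD was not particular to endothelial genes. In ADPKD+MMPP against ADPKD 7 of the 8 were called higher, where 27.9% of all tested genes were. The 8 genes summed to 283 and 298 FPKM in WT, 64.9 and 29.3 in ADPKD and 190 and 201 in ADPKD+MMPP.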
